A study of Mus musculus with 42 samples.

Results

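A set of 7 genes was followed that pass glutamate, aspartate and malate between the mitochondrion and the cytosol: Glud1, Me2, Slc25a11, Got1, Got2, Mdh1 and Mdh2. They were chosen by their signals in these same arrays: probes of Glud1, Slc25a11 and Me2 had stood out between irradiated and control lungs or between fractionated and acute lungs, and the other genes complete the route. A gene was represented by its brightest probe, the one of highest mean signal over the 42 arrays, and its other probes served as a check. Of the 7 genes, 6 had a probe annotated to them, among 19053 genes with a named probe. Got1, the cytosolic aspartate aminotransferase, had no probe under its name in the annotation used and was not analysed here. The 6 genes had 14 probes, of which 10 were tested, that is, detected above background on at least 13 arrays. The 4 probes left out were the dimmer ones of Me2 and Got2 and a pair of Mdh1.

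Glutamate dehydrogenase (Glud1) splits glutamate into 2-oxoglutarate and ammonia in the mitochondrial matrix and so feeds the citric acid cycle. The malate-aspartate shuttle carries the electrons of cytosolic NADH into the matrix: malate dehydrogenase makes malate in the cytosol (Mdh1) and turns it back in the matrix (Mdh2), aspartate aminotransferase works on both sides (Got1 and Got2), and the carrier Slc25a11 exchanges malate for 2-oxoglutarate. Malic enzyme 2 (Me2) takes malate out of the cycle as pyruvate inside the mitochondrion. Proliferating and tumour cells are known for drawing on glutamine and glutamate through these steps.

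The lungs came from 129S2 K-rasLA1 mice, which carry a latent mutant K-ras allele (G12D) that becomes active by spontaneous recombination in single cells. Every group carried the allele, controls included, so no lung without it was measured. Fractionated mice (7 males and 7 females) received 1.0 Gy of 56Fe particles as 5 exposures of 0.2 Gy, and acute mice (8 males and 7 females) received 1.0 Gy at once. The particles, iron nuclei of the kind met in cosmic radiation, had an energy of 1.0 GeV per nucleon. Control mice (7 males and 6 females) were left unirradiated, and the whole left lung of each mouse was frozen at day 70. The labels used here do not give the age of the mice. Each mouse had an array of its own, so the spread between arrays includes the spread between animals. A whole lung mixes many cell types, and fewer cells of a type cannot be told apart from less RNA per cell.

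The arrays lay on 8 slides, of which 7 held all 3 groups, and 16264 to 18289 probes were detected per array. Markers of alveolar type 2 and type 1 cells passed detection for 10 of 10 and 9 of 9 genes. Fractionated replicate 13, a female, stood apart: over all tested probes it correlated with the median of the arrays at 0.866, and the other 41 arrays at 0.962 or more. Its summed signal of cell cycle markers, of which 5 of 10 were tested, was 20237, while the other arrays reached at most 1940. Its T and NK cell markers, 5 of 9 tested, summed to 27211, against at most 2229 elsewhere. The design text counts 13 fractionated mice where 14 arrays carry that label, and this array has an empty column in the authors' table. The values it moves most are therefore also given without it.

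Over all 17927 probes, limma called none between fractionated and control lungs at a Benjamini-Hochberg adjusted p under 0.05 (0%), while 784 had an unadjusted p under 0.05 (4.37%). Between acute and control lungs it likewise called none (0%, with 253 unadjusted, 1.41%), and between fractionated and acute lungs none (0%, with 372 unadjusted, 2.08%). Both irradiated groups together against control gave none as well in limma (0%, with 475 unadjusted, 2.65%). The genes were chosen by these comparisons, so their differences between groups are given as a description with the standard error (SE) and no p. All levels are log2 signals after normalization, and differences are differences of log2 signal.

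**Figure D1:**
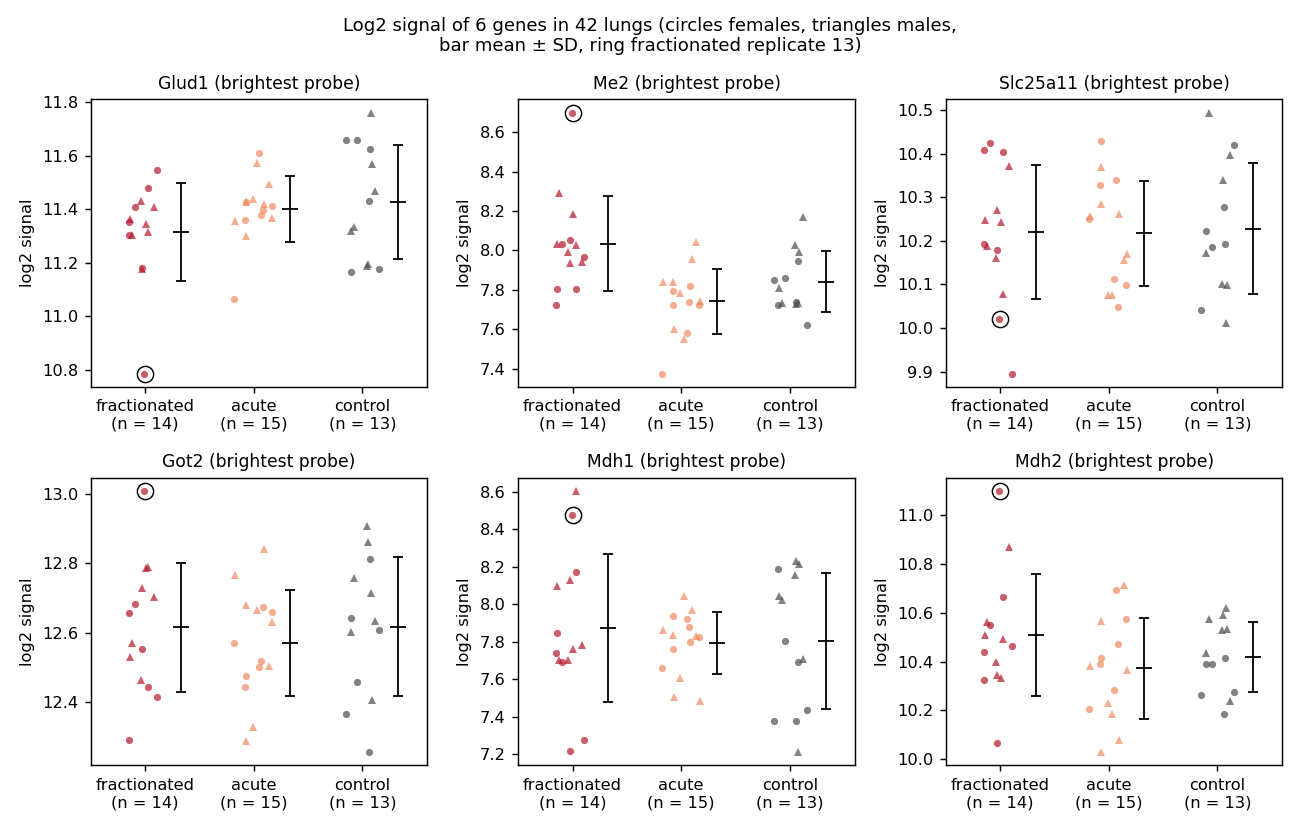
Log2 signal (vertical axis) of the brightest probe of 6 genes in fractionated (n = 14), acute (n = 15) and control lungs (n = 13), left to right in each panel, with circles for females, triangles for males and bars for the mean ± SD. The ring marks fractionated replicate 13, the highest of all arrays for Me2 (8.70), Got2 (13.01) and Mdh2 (11.10) and the lowest for Glud1 (10.79).

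Glud1 lay at much the same level in all 3 groups by its brightest probe, ILMN_2763080, with a mean signal of 2764. Its log2 signal ran from 10.79 over a median of 11.35 to 11.55 in fractionated lungs, from 11.07 over 11.41 to 11.61 in acute lungs, and from 11.16 over 11.43 to 11.76 in control lungs. The groups overlapped almost throughout, although the 4 highest lungs were controls and 11 of 14 fractionated and 11 of 15 acute lungs lay below the control median. The difference was -0.11 ± 0.071 for fractionated minus control and -0.025 ± 0.069 for acute minus control. Both lie within the residual spread of the probe, an SD of 0.18. Without fractionated replicate 13, its lowest array, fractionated minus control was -0.072 ± 0.063.

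The dimmer Glud1 probes gave larger differences, and it is from them that Glud1 was known. On ILMN_3149251, with a mean signal of 629, log2 signal ran from 8.53 over 8.98 to 9.27 in fractionated lungs and from 8.47 over 9.05 to 9.35 in acute lungs. In control lungs it ran from 9.03 over 9.19 to 9.70. The irradiated groups reached lower and less high than the controls, with 11 of 14 fractionated and 12 of 15 acute lungs below the control median. The difference was -0.31 ± 0.090 for fractionated minus control, -0.28 ± 0.088 for acute minus control and -0.031 ± 0.087 for fractionated minus acute. With median scaling in place of quantile normalization these were -0.29 ± 0.13, -0.17 ± 0.13 and -0.12 ± 0.12. Of the 13 lists of cell type markers, 4 lay lower in every tested gene of both irradiated groups, with none called: cardiac muscle (9 of 9, median -0.58 in fractionated and -0.29 in acute lungs), adipose (4 of 4, -0.81 and -0.63), red cell (4 of 4, -0.65 and -0.16) and B cell (2 of 2, -0.46 and -0.17). Without fractionated replicate 13 the fractionated medians of these 4 lists were -0.32, -0.67, -0.51 and -0.38. The cell cycle list went the other way, higher for 5 of 5 genes in both groups (median 0.41, with that replicate, and 0.080). Over all genes 50.8% lay higher in fractionated and 56.1% in acute lungs. Endothelial markers lay lower for 9 of 9 genes in fractionated lungs (median -0.23, and 7 of 9 with -0.11 without that replicate) and for 8 of 9 in acute lungs (median -0.094). Their part in the Glud1 difference was not tested.

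The third probe, ILMN_3070576, was near background, with a mean signal of 161 and detection on 38 of 42 arrays. It averaged 5.95 ± 0.42 in fractionated lungs (SD, n = 14), 6.28 ± 0.23 in acute lungs (n = 15) and 6.37 ± 0.33 in control lungs (n = 13). Here the fractionated lungs alone stood low, at -0.41 ± 0.13 against control, while acute minus control was -0.089 ± 0.13. Leaving out fractionated replicate 13 gave -0.35 ± 0.12, and leaving out background correction gave -0.18 ± 0.058. The 3 probes of Glud1 gave the same order of the group means, fractionated below acute below control, with steps of different size, and which transcripts each one reads was not analysed here.

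**Figure D2:**
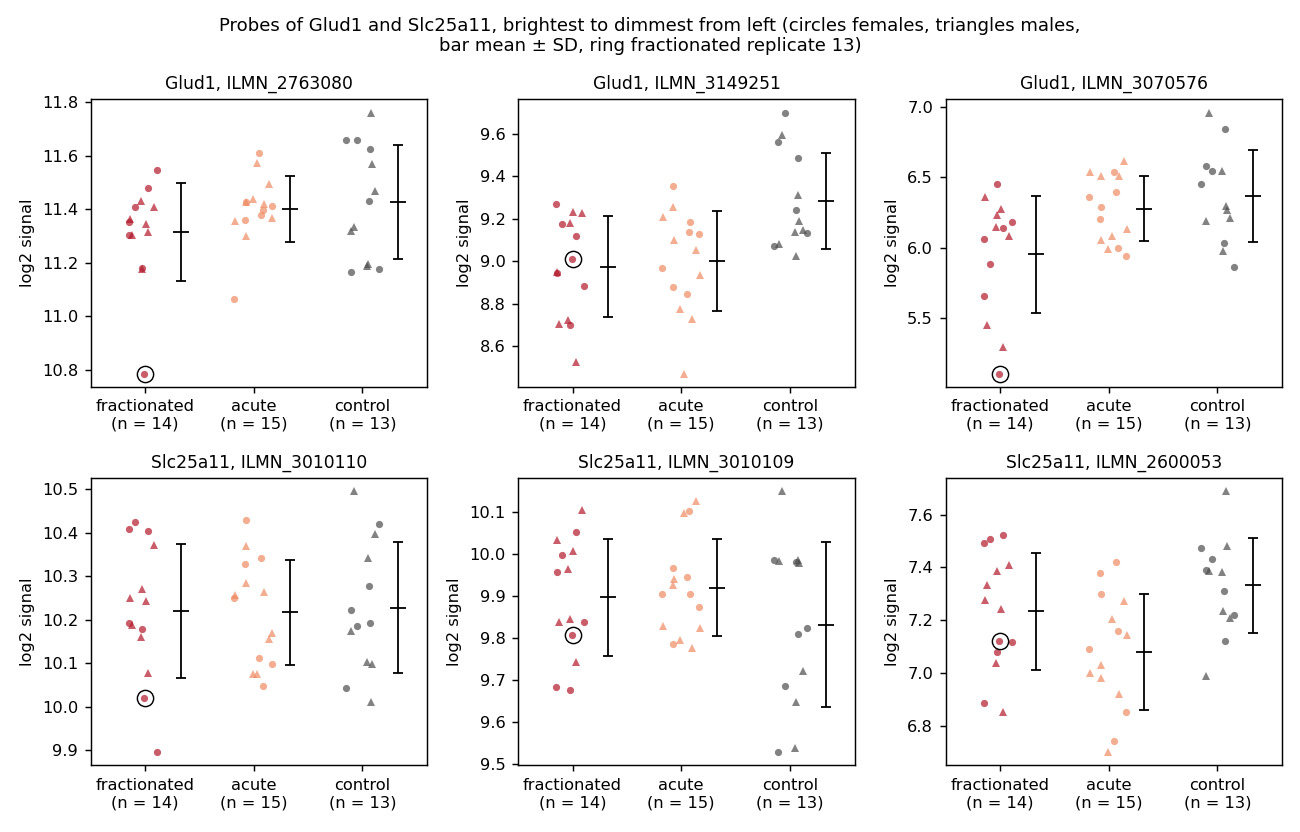
Log2 signal (vertical axis) of the 3 tested probes of Glud1 (top row) and of Slc25a11 (bottom row), brightest on the left, in fractionated, acute and control lungs, with circles for females, triangles for males, bars for the mean ± SD and a ring for fractionated replicate 13. Control lungs sit higher than both irradiated groups on Glud1 ILMN_3149251 and higher than acute lungs on Slc25a11 ILMN_2600053, and the brightest probes on the left show no such step.

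Slc25a11, the malate and 2-oxoglutarate carrier, also gave differences that varied between its probes, here in sign as well as in size. Its brightest probe, ILMN_3010110 (mean signal 1288), averaged 10.22 ± 0.15 in fractionated lungs (SD, n = 14), 10.22 ± 0.12 in acute lungs (n = 15) and 10.23 ± 0.15 in control lungs (n = 13). The difference was -0.0075 ± 0.061 for fractionated minus control and -0.010 ± 0.060 for acute minus control, with 95% intervals of -0.13 to 0.12 and -0.13 to 0.11. The second probe, ILMN_3010109, lay a little higher after irradiation, by 0.066 ± 0.064 in fractionated and 0.088 ± 0.063 in acute lungs.

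The dimmest probe of Slc25a11, ILMN_2600053 (mean signal 234), is the one that lay low in acute lungs. Its log2 signal ran from 6.85 over 7.26 to 7.52 in fractionated lungs, from 6.70 over 7.09 to 7.42 in acute lungs and from 6.99 over 7.38 to 7.69 in control lungs. Of the acute lungs 14 of 15 lay below the control median, and of the fractionated lungs 9 of 14. Acute minus control was -0.25 ± 0.085, fractionated minus control -0.10 ± 0.087 and fractionated minus acute 0.15 ± 0.084. With median scaling, acute minus control was -0.17 ± 0.12.

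Me2 was the one gene whose brightest probe differed between the groups by more than its residual SD of 0.19. This only tested probe of Me2 is the one by which the gene was chosen, so that difference restates the choice. Its log2 signal ran from 7.72 over 8.01 to 8.70 in fractionated lungs, from 7.38 over 7.75 to 8.04 in acute lungs and from 7.62 over 7.81 to 8.17 in control lungs. The means were 8.03 ± 0.24 in fractionated lungs (SD, n = 14), 7.74 ± 0.16 in acute lungs (n = 15) and 7.84 ± 0.15 in control lungs (n = 13), so acute lungs were the lowest. Of the fractionated lungs 13 of 14 lay above the acute median. Fractionated minus acute was 0.30 ± 0.076, which is 1.23-fold, and fractionated minus control 0.20 ± 0.079. Control and acute lungs lay closer together, with acute minus control at -0.099 ± 0.077.

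A single lung carried part of the Me2 difference. Fractionated replicate 13, with its high cell cycle and T cell marker sums, held the highest Me2 level of all arrays at 8.70, the next being 8.29. Without it, fractionated minus acute was 0.24 ± 0.063 and fractionated minus control 0.14 ± 0.065. Me2 was higher in fractionated than in acute lungs on 7 of the 7 slides that held both, by 0.086 to 0.34 without that lung. It was higher in fractionated than in control lungs on 6 of 7 slides, by -0.0058 to 0.22. The other Me2 probe, ILMN_1231016, was detected on 0 of 42 arrays, so Me2 has no second measurement here. Cell cycle markers also lay higher in fractionated than in acute lungs for 5 of 5 tested genes (median 0.33, none called), and for 3 of 5 without that lung (median 0.0096). Their summed signal without it ran up to 1940 in fractionated, 1759 in acute and 1626 in control lungs. Their part in the Me2 difference was not tested.

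**Figure D3:**
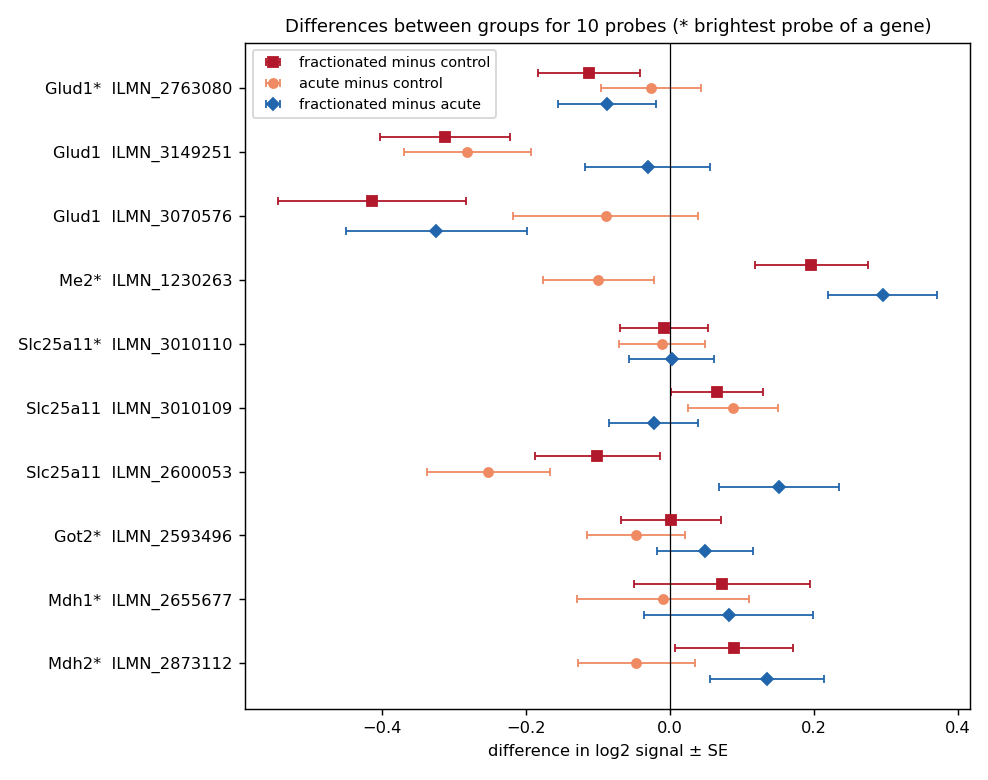
Difference in log2 signal ± SE (horizontal axis) for the 10 tested probes, with squares for fractionated minus control, circles for acute minus control and diamonds for fractionated minus acute, and an asterisk for the brightest probe of a gene. The brightest probes lie between -0.11 and 0.30, with Me2 farthest from 0, while dimmer probes of Glud1 and Slc25a11 reach -0.41 and -0.25.

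The matrix partners of the shuttle, Got2 and Mdh2, moved little. Got2, the brightest probe of the set at a mean signal of 6282, averaged 12.62 ± 0.19 in fractionated lungs (SD, n = 14), 12.57 ± 0.15 in acute lungs (n = 15) and 12.62 ± 0.20 in control lungs (n = 13). Its differences were 0.0019 ± 0.069 for fractionated minus control and -0.047 ± 0.068 for acute minus control, and the 3 groups covered much the same range. Without fractionated replicate 13, the highest Got2 array, fractionated minus control was -0.032 ± 0.064. Mdh2 averaged 10.51 ± 0.25 in fractionated lungs, 10.37 ± 0.21 in acute lungs and 10.42 ± 0.14 in control lungs. Fractionated minus control was 0.090 ± 0.082 with fractionated replicate 13, the highest Mdh2 array at 11.10, and 0.044 ± 0.074 without it. Acute minus control was -0.046 ± 0.081 for Mdh2, and fractionated minus acute 0.14 ± 0.079, both under its residual SD of 0.21.

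Cytosolic Mdh1 had the largest residual SD of the brightest probes, though not the widest range among acute lungs. Its log2 signal ran from 7.22 over 7.77 to 8.60 in fractionated lungs and from 7.21 over 7.80 to 8.23 in control lungs. The acute lungs kept to a narrower range, from 7.48 over 7.83 to 8.04. Fractionated minus control was 0.073 ± 0.12 and acute minus control -0.0093 ± 0.12, small beside the residual SD of 0.32. Without fractionated replicate 13 fractionated minus control was 0.021 ± 0.12. The 95% interval for fractionated minus control ran from -0.17 to 0.32, so changes of that size were not resolved with this number of lungs. The highest Mdh1 level, 8.60, came from the single fractionated lung on slide 8.

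For acute minus control the direction of these small differences depends on the scaling. With median scaling in place of quantile normalization, all genes shifted by a median of 0.12, and the brightest probes of Glud1, Slc25a11, Got2, Mdh1 and Mdh2 then lay between 0.080 and 0.11, at or below that shift. Me2 lay at -0.0058 there. For fractionated minus acute all genes shifted by -0.097, and Me2 was 0.20 ± 0.11. For fractionated minus control the median of all genes stayed at 0.017 under that scaling, and Me2 was 0.19 ± 0.11.

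**Figure D4:**
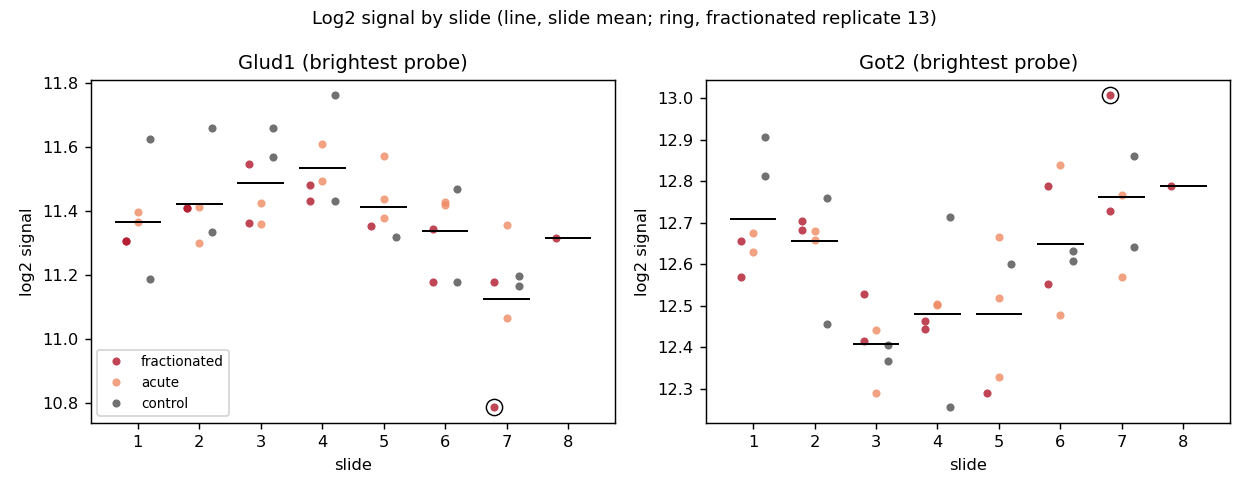
Log2 signal (vertical axis) of the brightest probes of Glud1 (left) and Got2 (right) by slide (horizontal axis), with points for single lungs coloured by group, lines for the mean of a slide and a ring for fractionated replicate 13. Glud1 is highest and Got2 lowest on slides 3 to 5.

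Levels of Glud1 and Got2, like those of many probes, differed between slides. An F test over the 7 slides with all groups, in the same limma model, called 6655 of 17927 probes (37.1%). Of the 6 brightest probes it called Got2 (adjusted p = 0.00154) and Glud1 (adjusted p = 0.00307), no larger a share than over all probes. For the others the adjusted p lay between 0.205 and 0.842, and the second Slc25a11 probe was called too (adjusted p = 0.0143). On slides 3 to 5 Glud1 averaged 11.48 ± 0.12 (SD, 17 lungs), against 11.33 ± 0.14 on the other slides (24 lungs, without fractionated replicate 13). Got2 ran the other way, at 12.46 ± 0.13 on slides 3 to 5 and 12.69 ± 0.12 elsewhere. What differs between the slides was not tested.

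Lungs of the same slide were also compared. These are the arrays by which the genes were chosen, so the values describe the differences again and do not test them. With slide as a block, fractionated minus control was -0.11 ± 0.056 for Glud1 and 0.20 ± 0.081 for Me2. Within slides Glud1 was lower in fractionated than in control lungs on 6 of 7 slides, by -0.16 to 0.033, and lower in acute than in control lungs on 4 of 7. The probe Glud1 ILMN_3149251 was lower on 7 of 7 slides in both irradiated groups, by -0.44 to -0.11 in fractionated and -0.45 to -0.099 in acute lungs. Slc25a11 ILMN_2600053 was lower in acute than in control lungs on 6 of 7 slides. Mdh1 was lower in fractionated than in control lungs on 6 of 7 slides, by -0.20 to 0.64, with the 0.64 on slide 4. Its difference over all lungs was above 0, but that includes its highest arrays, fractionated replicates 14 (8.60) and 13 (8.48). Both are left out of the counts, so the sets of lungs differ. The brightest Slc25a11 probe was higher in fractionated than in control lungs on 5 of 7 slides. Its difference over all lungs, which include fractionated replicate 13 (10.02), was -0.0075. For the same pair of groups Mdh2 was higher on 4 of 7 slides and Got2 on 3 of 7. The position of an array on its slide called none of the 17927 probes in limma (0%, with 1138 at an unadjusted p under 0.05, 6.35%).

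Male and female lungs were compared in the same model, a contrast that did not enter the choice of genes. It called 318 probes (1.77%), 219 higher in males (1.22%) and 99 lower (0.552%), and none of the 6 brightest probes. Mdh1 averaged 7.89 ± 0.31 in males (SD, n = 22) and 7.75 ± 0.32 in females (n = 20). Got2 averaged 12.64 ± 0.17 in males and 12.55 ± 0.18 in females. Their limma differences, male minus female, were 0.13 ± 0.098 (adjusted p = 0.505) and 0.093 ± 0.056 (adjusted p = 0.407). Me2 followed at 0.086 ± 0.063 (adjusted p = 0.512), and Glud1, Slc25a11 and Mdh2 lay within 0.014 of 0 with adjusted p of 0.929 or more. Cardiac muscle markers lay higher in males for 9 of 9 tested genes (median 1.00, or 0.83 without fractionated replicate 13, none called). So did markers of alveolar type 1 cells (9 of 9, median 0.23, 1 called), airway secretory cells (5 of 5, 0.41), adipose tissue (4 of 4, 0.38) and red cells (4 of 4, 0.65). Cell cycle markers lay lower for 5 of 5 (-0.75), and the other lists were mixed. The part of any list in the Mdh1 difference was not tested.

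The interaction of sex with irradiation asks whether the sexes differ in their response. It called no probe for either kind of irradiation (0% each in limma, with 460 unadjusted, 2.57%, for fractionated and 370, 2.06%, for acute). Mdh2 came nearest: males averaged 10.32 ± 0.24 in acute lungs (n = 8) and 10.50 ± 0.13 in control lungs (n = 7), while females averaged 10.43 ± 0.17 in acute lungs (n = 7) and 10.32 ± 0.091 in control lungs (n = 6). The acute-minus-control difference in males minus that in females was -0.30 ± 0.16 in limma (adjusted p = 1.00, unadjusted p = 0.0703), which does not pass.

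Across lungs the genes of the route did not follow one another as a set. Slides 3 to 5 (17 lungs) and the other slides (24 lungs, without fractionated replicate 13) were taken apart. This division was known from earlier results of these data. Each set held 15 pairs of genes, with permutation p adjusted within the set and apart for r and rho. Lungs were permuted freely within a set, across its slides, groups and sexes, so r includes any differences between these. The median r was 0.078 on slides 3 to 5 and 0.068 on the others. One pair was called on slides 3 to 5: Glud1 and Slc25a11 ran opposite ways with r = -0.68 (rho = -0.76, two-sided permutation test, p = 0.00297, adjusted p = 0.0446). Without the 2 lungs farthest from the Glud1 median r was -0.61 (adjusted p = 0.101), and on the other slides it was -0.020 (adjusted p = 0.926). The call was lost without those 2 lungs, with r of similar size.

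Got2 of the matrix and Mdh1 of the cytosol gave r = 0.56 on the other slides (permutation p = 0.00472, adjusted p = 0.0708), which does not pass. Their rho there was 0.60 (adjusted permutation p = 0.0368), which does. On slides 3 to 5 their r was 0.22 (adjusted p = 0.645). Me2 and Mdh2 gave 0.54 on slides 3 to 5 (permutation p = 0.0238, adjusted p = 0.178) and 0.068 on the others. Even probes of the same gene followed each other loosely: among the 6 pairs of Glud1 or Slc25a11 probes r ran from 0.032 to 0.53 on slides 3 to 5 and from 0.015 to 0.57 on the other slides. Only the dimmer Glud1 probes were called together, on the other slides (r = 0.57, permutation p = 0.00329, adjusted p = 0.0197), and without the 2 farthest lungs no pair was.

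The levels were set against the 13 marker lists, 78 relations in each set of slides, and none passed after adjustment by r. By rho 1 passed, that of Slc25a11 with endothelial markers on slides 3 to 5, 9 of 10 tested (rho = -0.81, permutation p = 0.00015, adjusted p = 0.0117). By r it was -0.66 (adjusted permutation p = 0.0649), or -0.57 without the 2 farthest lungs, and on the other slides rho was -0.31 (adjusted permutation p = 0.622). The smallest p by r on slides 3 to 5 was that of Slc25a11 with macrophage markers, 5 of 9 tested, at r = 0.70 (rho = 0.72, permutation p = 0.00133, adjusted p = 0.0649). On the other slides it was that of Mdh1 with cardiac muscle markers, 9 of 10 tested, at r = 0.61 (rho = 0.53, permutation p = 0.00102, adjusted p = 0.0706). Mdh2 with endothelial markers had the same adjusted p there, at r = -0.61 (rho = -0.40). Mdh1 with club and airway secretory markers, 5 of 6 tested, gave r = 0.68 on slides 3 to 5 (adjusted permutation p = 0.0649). On the other slides that r was 0.51 (adjusted permutation p = 0.246). Summed cardiac muscle signal ran from 2137 (5727 without fractionated replicate 13) to 45011 in fractionated, 7186 to 27052 in acute and 7581 to 46473 in control lungs, so lungs differed widely in it within every group. Its part in the spread of Mdh1 was not tested.

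Among 10295 genes, those most like Glud1 across the 41 lungs other than fractionated replicate 13 were Abca7, a lipid transporter (r = 0.66), Tax1bp1, an autophagy receptor (r = 0.66), Rccd1 (r = 0.64), Terf2ip, a telomere protein (r = 0.64), and Usp7, a deubiquitinase (r = 0.63). With slide means removed they were the transcription factor Elk3 (r = 0.60), Rccd1 (r = 0.60), the phosphofructokinase Pfkp (r = 0.56), the argininosuccinate synthase Ass1 (r = 0.55) and Rexo1 (r = 0.55). Rccd1 alone stood in both lists. These r describe likeness over lungs that share slides, and no gene of the route came near them. The closest was Mdh2 at 0.087 over all 41 lungs and Got2 at 0.15 with slide means removed, and Slc25a11 was at -0.38 and -0.39.

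The wider pathway gave no called gene between irradiated and control lungs in any of 9 lists, beside 0% over all probes. Of 15 tested genes of the citric acid cycle, 11 lay higher in fractionated than in control lungs with a median difference of 0.051, beside 0.0030 over all 10295 genes. In acute lungs 5 of 15 lay higher with a median of -0.025, beside 0.013 over all genes. With median scaling 15 of 15 did, with a median of 0.094, beside 87.4% of all genes and a median of 0.12. Sdhd, a subunit of succinate dehydrogenase, was the highest of them in both groups, at 0.24 ± 0.13 and 0.18 ± 0.13. The lowest were Idh3g at -0.046 ± 0.076 in fractionated and the fumarase Fh1 at -0.084 ± 0.086 in acute lungs.

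Of 18 tested genes of glutamate and glutamine metabolism, 12 lay lower in fractionated lungs with a median of -0.079, which was -0.034 without fractionated replicate 13. In acute lungs 10 of 18 lay lower with a median of -0.020, and with median scaling 14 of 18 lay higher, beside the same 87.4% of all genes. The glutamine transporter Slc1a5 lay lowest in fractionated lungs at -0.28 ± 0.16, and Aldh18a1, which starts proline synthesis from glutamate, highest at 0.23 ± 0.16. In acute lungs the ends were the alanine aminotransferase Gpt2 at -0.20 ± 0.11 and the glutamate transporter Slc1a1 at 0.14 ± 0.16.

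Of 9 tested genes of pyruvate dehydrogenase, its kinases and its phosphatases, 7 lay lower in fractionated lungs (median -0.056). Without fractionated replicate 13 it was 8 of 9 (median -0.084). In acute lungs 8 of 9 lay lower (median -0.11), and with median scaling 4 of 9. The pyruvate carriers Mpc1 and Mpc2 had no probe under their names. The list mixes the enzyme with its regulators, so the counts give no direction for the step. The pyruvate dehydrogenase kinase Pdk4 was lowest in both, at -0.31 ± 0.25 and -0.41 ± 0.25, and Pdk3 highest, at 0.063 ± 0.091 and 0.12 ± 0.090. Among 11 tested factors of mitochondrial biogenesis 9 lay higher in fractionated lungs (median 0.068) and 6 in acute lungs (median 0.060). Without fractionated replicate 13 the fractionated median was 0.014. The coactivator Ppargc1b was highest in both groups, at 0.20 ± 0.15 in each, while Tfb2m was lowest in fractionated lungs (-0.023 ± 0.068) and Ppargc1a in acute lungs (-0.10 ± 0.13).

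The remaining lists were short. Of 7 mitochondrial metabolite carriers 3 lay higher in fractionated (4 without replicate 13) and 4 in acute lungs, with Slc25a20, the acylcarnitine carrier, lowest at -0.15 ± 0.11 and -0.070 ± 0.11. The highest carriers were the ADP and ATP carrier Slc25a5 in fractionated lungs (0.062 ± 0.080) and the citrate carrier Slc25a1 in acute lungs (0.10 ± 0.13). Of 5 tested shuttle genes, 4 of them members, 4 lay higher in fractionated and 1 in acute lungs, where the highest was the aspartate carrier Slc25a12 (0.058 ± 0.11). Of 5 tested malic enzyme and anaplerosis genes 4 lay higher in either group (5 in fractionated lungs without replicate 13), Me1 most (0.22 ± 0.70 and 0.23 ± 0.69), with Pccb, a subunit of propionyl-CoA carboxylase, lowest in fractionated lungs (-0.033 ± 0.070) and Me2 in acute lungs. In the list of cytosolic redox and citrate genes, 5 of 9 lay higher in fractionated (6 of 9 without replicate 13) and 4 of 9 in acute lungs, with the isocitrate dehydrogenase Idh1 lowest at -0.19 ± 0.10 and -0.090 ± 0.10. The 3 tested regulators of glutamate dehydrogenase, the mitochondrial sirtuins Sirt3, Sirt4 and Sirt5, lay between 0.0089 and 0.10 above control in both groups. The ends there were Sirt3 and Sirt5 in fractionated lungs (0.0089 ± 0.086 and 0.077 ± 0.15) and Sirt4 and Sirt3 in acute lungs (0.066 ± 0.079 and 0.10 ± 0.085).

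Between the sexes 1 gene of the 9 lists was called, 1 of 18 tested in the glutamate and glutamine list and none in the other lists. Over all genes 189 of 10295 were called, and 1.77% over all probes. A single call does not set these lists apart from all genes. Slc38a2, a glutamine transporter, averaged 10.37 ± 0.29 in males (SD, n = 22) and 10.69 ± 0.27 in females (n = 20), a limma difference of -0.32 ± 0.086 (adjusted p = 0.0379). The call held with slide as a block (adjusted p = 0.0346) and without fractionated replicate 13 (adjusted p = 0.0386) and was lost with median scaling (adjusted p = 0.303). Its other tested probe gave -0.17 ± 0.11 in limma (adjusted p = 0.449). With slide as a block 1 further gene was called, Ogdh of the 2-oxoglutarate dehydrogenase complex, at 0.16 ± 0.044 in limma (adjusted p = 0.0403).

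The bases before the start sites of 3 genes are shown for reference, since no measurement here reads them. They are windows of 250 bases from RefSeq (GRCm38.p6), and 6 such windows of the genes were searched (Me2 was not used). Of these 4 held GGGCGG on either strand, which 32.7% of 32851 promoters hold. The Glud1 window, chr14:34310477-34310726 on the plus strand, held it at 3 places, shown in capitals.
Glud1: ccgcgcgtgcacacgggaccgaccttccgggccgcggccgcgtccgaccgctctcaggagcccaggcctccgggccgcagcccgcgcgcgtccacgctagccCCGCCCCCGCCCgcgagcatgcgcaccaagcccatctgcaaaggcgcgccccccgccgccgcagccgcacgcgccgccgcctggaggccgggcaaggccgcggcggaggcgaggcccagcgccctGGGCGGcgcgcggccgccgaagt
TCTCGCGA on either strand stood in 2 of the 6 windows, those of Slc25a11 and Mdh2, and in 0.858% of all promoters. It is in capitals in the window of Slc25a11, chr11:70647040-70647289 on the minus strand.
Slc25a11: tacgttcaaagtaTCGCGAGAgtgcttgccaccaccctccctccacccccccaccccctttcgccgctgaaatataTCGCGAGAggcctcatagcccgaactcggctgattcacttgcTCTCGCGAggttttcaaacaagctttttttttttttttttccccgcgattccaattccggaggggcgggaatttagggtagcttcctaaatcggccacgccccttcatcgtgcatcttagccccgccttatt
In the window of Mdh2, chr5:135778399-135778648 on the plus strand, the matches of both strands overlap at 3 places. Capitals also mark TGACGTCA there, which 1 of the 6 windows and 1.55% of all promoters hold.
Mdh2: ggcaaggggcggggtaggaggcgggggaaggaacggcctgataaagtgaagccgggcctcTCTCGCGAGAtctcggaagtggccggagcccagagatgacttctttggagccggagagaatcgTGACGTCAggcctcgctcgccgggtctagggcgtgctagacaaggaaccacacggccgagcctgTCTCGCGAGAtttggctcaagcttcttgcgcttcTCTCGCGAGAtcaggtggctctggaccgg
CCAAT on either strand stood in 3 of the 6 windows (33.8% of all promoters) and GCGCATGC in 1 (2.26%). None of the 6 held CCGGAAGT (2.88%) or TCAAGGTCA (0.387%) on either strand.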

How the data were processed

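Whole lungs were measured on Illumina arrays, 1 array per mouse, with groups and sex from the labels and slides from the array titles. The authors deposited a table of signal intensity before normalization, each value with its detection p-value, per the file headers. They also deposited a table of log2 values (columns with a median of 3.96, Spearman correlation of at least 0.999997 with the signals), which served as an alternative. Its background step and the software are not given in the sources used here.

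Signals were corrected and quantile normalized with neqc in limma 3.58.1 (R 4.3.3; offset 16), with the background inferred from the detection p. Probes with a detection p under 0.01 on at least 13 arrays were tested. Of 45281 probes 34885 had 1 gene symbol, 18 several and 10378 none, and 34862 matched RefSeq names of GRCm38.p6. The limma fit held group and sex over all 42 arrays, with an intensity trend in the prior variance. Tests were two-sided and adjusted by Benjamini-Hochberg. The fit was also run on simulated arrays with independent normal noise and no outlying array. The shifts put in were larger than any group difference of the members, so the run does not bear on differences of their size. Permutation tests drew 100000 resamples (SciPy 1.17.1), and intervals are at 95%.

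The genes and lists were chosen with earlier results of these data known. Named genes were the members, called list genes or, where none was called, the ends of each list, and the 5 genes most like Glud1. A list gene was represented by its brightest named probe. Precision is set by how many arrays there are: the median SE of a probe was 0.13 for fractionated minus control and 0.12 for acute minus control. Alternatives changed slide, scaling, background, filter, sex, position, array weights and replicate 13; those on the lists and on Slc38a2 were chosen after seeing the data.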

Additional observations from a re-analysis of the deposited data

How the results depend on the processing

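No paired analysis was possible because replicate numbers were given in accession order and pair no samples. The members' differences between groups moved by less than their residual SD in all 264 repeats with another setting. They moved by more in 9 of 16 repeats with another probe, the dimmer ones of Glud1 and Slc25a11 described in the report. That SD is wider than the SE of a difference, so it passes over changes of sign. Acute minus control changed sign for every brightest probe but that of Me2, as for Glud1 (-0.037 to 0.11) and Got2 (-0.054 to 0.081). Fractionated minus control changed sign for Slc25a11, Got2 and Mdh1, and kept it for Glud1, Me2 and Mdh2. Tested results on sex changed sign in 20 repeats, none of them called. For male minus female these were Slc25a11 with slide as a block (0.0034), median scaling (0.019), position (0.025) or ILMN_3010109 (0.037), Mdh2 with position (-0.067), and Glud1 without fractionated replicate 13 (-0.013), the same with slide (-0.0022), in the authors' table (-0.013) or with ILMN_3149251 (-0.12). For the interaction with fractionated they were Slc25a11 with slide (0.021) or ILMN_3010109 (0.019), and Me2 without fractionated replicate 13 (0.065), the same with slide (0.066), in the authors' table (0.066) or with array weights (0.041). They were also Mdh1 without that array (0.017), in the authors' table (0.018) or with weights (0.038), and Glud1 with weights (-0.0069). For the interaction with acute it was Slc25a11 with median scaling (0.043). The 318 probes called between the sexes became 538 with slide as a block, 868 with slide and without fractionated replicate 13, 76 with median scaling, 186 with no filter, 197 when detected on all arrays and 1165 with array weights. The 6655 probes called for slide became 12437 with median scaling, where Me2 (adjusted p = 0.0128), Slc25a11 (0.000655), Mdh1 (0.000775) and Mdh2 (3.38e-05) were called in limma too. Called pairs of genes became 0 on slides 3 to 5 without the 2 farthest lungs and 1 on the other slides with fractionated replicate 13. The cause of these changes was not tested. Probes near background, such as ILMN_3070576, carry the widest error.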

Other observations

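Me1, the cytosolic malic enzyme that makes NADPH, fell into 2 separate sets of lungs within every group. Its probe was detected on 16 of 42 arrays, those with a log2 signal of 6.21 to 9.75, while the other 26 lay at 5.30 or below. Among fractionated lungs 5 of 14 were in the high set, among acute lungs 6 of 15 and among control lungs 5 of 13, and among males 8 of 22 against 8 of 20 females. Me1 is no gene of the set followed here, and this division was seen after its values were known. Its differences of 0.22 ± 0.70 for fractionated minus control and 0.23 ± 0.69 for acute minus control therefore span both sets. What parts the lungs was not tested.

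Mdh1 was most like Pln, a regulator of the heart's calcium pump (r = 0.66), Igsf1 (r = 0.66), Art1 (r = 0.65), Atp5o, a subunit of ATP synthase (r = 0.65), and Ndufs3, a subunit of respiratory complex I (r = 0.65), over the 41 lungs other than fractionated replicate 13. With slide means removed they were Cycs (r = 0.71), Mrpl30 (r = 0.64), Ldb3 (r = 0.64), Art1 (r = 0.63) and Nppa (r = 0.62). Art1 alone stood in both lists. Both were drawn up after the values were seen. The lungs share slides, so these r are a description.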
